A study of Oryza sativa with 12 samples.

Results

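A set of 60 rice genes had RNA levels at the end of the night at least 4-fold above those at the end of the day, and group means that stayed within 1.41-fold of the unchilled controls after 4 h of chilling at either time. They were taken from 40424 gene identifiers counted by RNA-seq of seedling shoots of the indica cultivar 93-11 (Oryza sativa). Members were chosen on measured values: counts were divided by median-of-ratios size factors, and M was the log2 of a group's mean scaled count plus 1. A gene was kept when its largest M was at least 8 (a mean scaled count of 255), when NT24 exceeded NT12 by at least 2 in M, and when chilled and normal groups differed by less than 0.5 at both times. These differences are therefore a description of the set and not a finding about it. The deposited table does not pair identifiers with gene names, and 0 of the 40424 identifiers, 0 of the 60 members among them, matched the RefSeq rice gene table, so members are given by identifier and their functions are not stated. For the same reason the labelled tissue could not be checked against leaf or root markers.

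Seedlings were grown at 28 °C with 12 h light and 12 h dark each day, and RNA was taken on day 11 from the parts above ground, with 5 plants pooled in each library. Zeitgeber time (ZT) counts hours from lights-on. NT12 seedlings stayed at 28 °C and were harvested at ZT12, and CT12 seedlings spent ZT8 to ZT12 at 13 °C. NT24 seedlings stayed at 28 °C until ZT24, and CT24 seedlings spent ZT20 to ZT24 at 13 °C. All 4 groups shared the cultivar, the 3-leaf stage, a labelled seedling age of 10 days and growth at 28 °C before treatment. Every library title carries the mark WT, read here as wild type. Each group had 3 libraries labelled as biological repeats. Whether the lights kept their cycle during treatment is not stated.

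Plants keep daily time with a circadian clock of transcription factors that repress each other in sequence. In Arabidopsis, morning factors such as CCA1 and LHY repress evening genes such as TOC1, and many output genes are timed to peak before or at dawn. Light, dark and sugar level also drive daily rhythms, and cold can damp or reset the clock while many cold-response genes react more at some times of day than at others. A harvest at 2 times of day cannot tell a clock rhythm from a direct response to light or dark. In RNA from whole shoots, a fall in the number of cells of a type and a fall of RNA per cell cannot be told apart.

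Total counts ranged from 42966604 to 52762123 per library, and every member had counts in all 12 libraries, the smallest being 14. Replicate 2 of CT12 stood apart from the other CT12 libraries. Its Pearson's r of log2 CPM (counts relative to the library total) across genes was 0.934 with replicate 1 and 0.948 with replicate 3, against 0.968 between those. The main values that include CT12 are given with and without it. The size factors averaged 1.39 in NT12 and 0.732 in CT12 although total counts were similar, so the choice of scaling weighs on every comparison of those groups.

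The dawn rise spanned a wide range of sizes. NT24 minus NT12 had a median of 2.54 over the members on the log2 scale, from 2.02 to 6.55. It lay between 2 and 3 in 43 members, between 3 and 4 in 10 and at 4 or more in 7. The median over members of the mean scaled count was 387 (NT12) and 436 (CT12) at ZT12, and 2463 (NT24) and 2266 (CT24) at ZT24. In every member, all NT24 libraries lay above all NT12 libraries (30.3% of the 24700 genes tested) and all CT24 libraries above all CT12 libraries (24.6%). All 6 libraries from ZT24 also lay above all 6 from ZT12 in each member, a pattern found in 9.32% of genes. The rule acts on group means and not on single libraries. With NT24 and NT12 means at least 4-fold apart and a median SD within groups of 0.222 on the log2 scale, it left little room for overlap. Most of the genes behind the shares had no such rise, so the contrast largely restates the choice of members. The gap between the lowest ZT24 library and the highest ZT12 library had a median of 1.75 on the log2 scale over members and ranged from 0.19 to 6.17. The members' share of all counts was 0.135% ± 0.00692 for NT12 and 0.0865% ± 0.00194 for CT12, and rose to 0.734% ± 0.0288 for NT24 and 0.662% ± 0.0261 for CT24 (mean ± SD over 3 libraries).

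**Figure D1:**
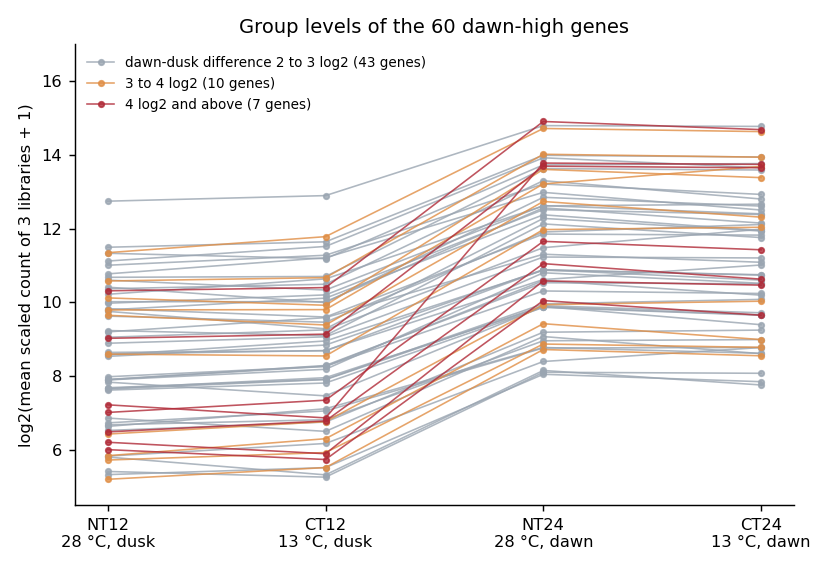
Lines join the 4 group levels of each member, on the y axis as log2 of the mean scaled count of 3 libraries plus 1, and colours mark the size of NT24 minus NT12. All 60 lines step up from the ZT12 groups to the ZT24 groups, with 43 members in the class from 2 to 3 and 7 in the class of 4 and above.

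OsR498G0205002700.01 had the largest rise at 28 °C. Its scaled counts were 169, 144 and 133 in the NT12 libraries, 98.6, 110 and 140 under chilling in CT12, 15593, 12219 and 14206 in NT24, and 12285, 14616 and 14088 in CT24. The libraries of each time of day thus lay close together relative to their distance from those of the other time. Its fitted log2 change with chilling at ZT12 was -0.36 (95% interval -0.71 to -0.02), which was not called. The mean rose 94.3-fold from NT12 to NT24 and 118-fold from CT12 to CT24. Its fitted log2 difference was 6.58 (SE 0.19) at 28 °C and 6.89 (SE 0.19) under chilling.

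OsR498G0306885200.01 had the next largest rise at 28 °C and was less displaced by chilling at ZT12. Its scaled counts were 519, 575 and 467 in NT12, 562, 528 and 599 under chilling in CT12, 15398, 10895 and 13338 in NT24, and 11372, 14178 and 12956 in CT24. Chilled and normal libraries overlapped at each time of day. Its mean rose 25.4-fold at 28 °C and 22.8-fold under chilling. OsR498G0204404000.01, second by its difference under chilling, went from 78.0, 66.0 and 32.2 in CT12 to 1504, 1419 and 1322 in CT24, a fitted log2 difference of 4.60 (SE 0.39). Its NT12 values of 109, 38.8 and 71.7 and NT24 values of 1456, 1798 and 1343 overlapped those of the chilled groups, with wider relative spread at the low level.

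Counts are not corrected for transcript length, so levels are not compared between genes. The members with the most scaled counts in NT24 were OsR498G0305374400.01, with 36142, 28900 and 26705, and OsR498G1018728100.01, with 26620, 27296 and 30986. The former stood at 1131, 1227 and 1457 in NT12, and the latter at 7660, 7538 and 5345. The former is thus also among the members of largest rise and the latter near the lower limit of the rule, with a fitted log2 difference of 4.61 (SE 0.18) and 2.06 (SE 0.31) respectively. In CT12 the latter had 8749, 3768 and 10292, the low value being that of replicate 2.

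**Figure D2:**
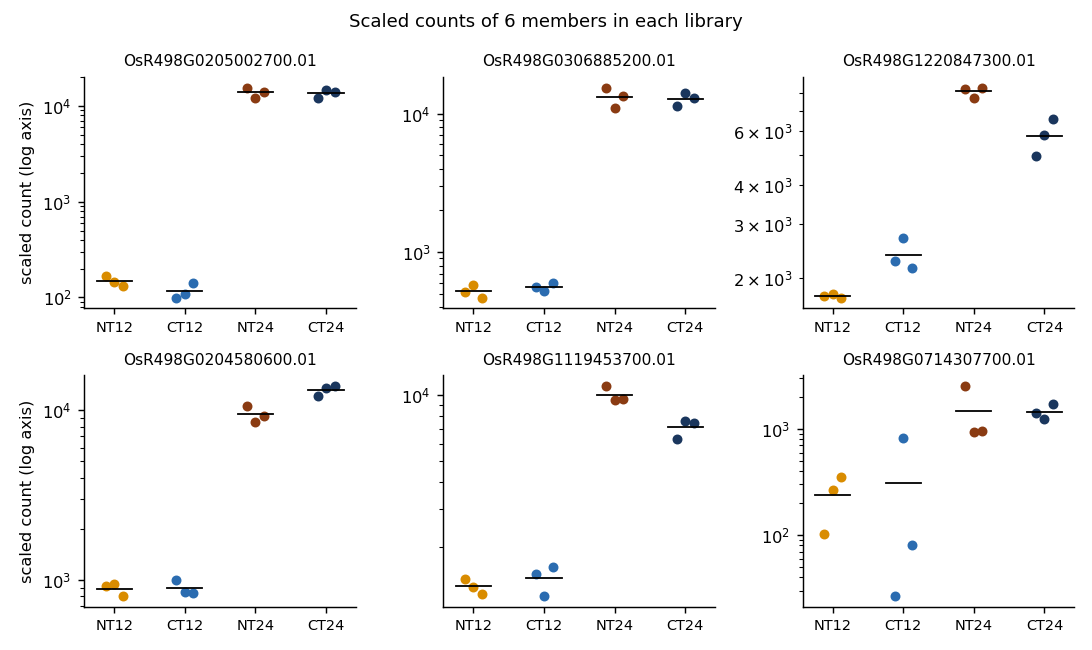
Scaled counts of 6 members in each library on log axes, with points for libraries in replicate order and black bars for group means. In 5 panels the libraries of a group lie close together, while OsR498G0714307700.01 spreads from 26.5 to 829 in CT12.

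Calls by the quasi-likelihood test of edgeR, at an adjusted p (Benjamini-Hochberg, over all genes) below 0.05, are listed beside the share of all genes called, since the rule used these contrasts. All 60 members were called higher in NT24 than in NT12, against 23.2% of genes tested, and 0 lower, against 20.9% (44.1% in either direction). In CT24 against CT12, 59 were called higher, against 20.3%, and the exception was OsR498G0714307700.01. The rule holds the difference under chilling within 1 log2 unit of that at 28 °C. CT24 minus CT12 ranged from 1.29 to 6.87 with a median of 2.32 on the log2 scale. As a percentage of NT24 minus NT12 it had a median of 91.7%, from 58.6% to 116%, and it was smaller than at 28 °C in 45 members and larger in 15. Without replicate 2 of CT12 the median difference was 2.52, the median percentage 93.9% (63.1% to 180%), and the split 41 to 19. Over all 907 abundant dawn-high genes, meaning those with a largest M of at least 8 and a rise of at least 2 whatever their response to chilling, the median was 48.6%, and 48.3% without that library.

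Most abundant dawn-high genes were displaced by chilling, and the 60 were a minority of 6.62% among the 907. Another 265 of the 907 differed by at least 0.5 upward at ZT12 and downward at ZT24, 211 upward at ZT12 alone and 151 upward at both times. Downward differences at both times numbered 96 and at ZT24 alone 92, while 18 differed downward at ZT12 alone. The least frequent patterns were upward at ZT24 alone, with 10, and downward at ZT12 with upward at ZT24, with 4. Without replicate 2 of CT12, the same 907 genes held 64 within both limits, 261 upward then downward, 204 upward at ZT12 alone, 150 upward at both times, 112 downward at both and 80 downward at ZT24 alone. By the mirrored rule, 35 of 917 dusk-high genes (3.82%) stayed within 0.5 at both times. Among the 14466 abundant genes whose levels at the 2 times differed by less than 2 on the log2 scale, 32.5% did so. These shares follow from group means, carry no test, and share control libraries with the time-of-day difference: NT12 enters both the rise and the ZT12 response, and NT24 both the rise and the ZT24 response.

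**Figure D3:**
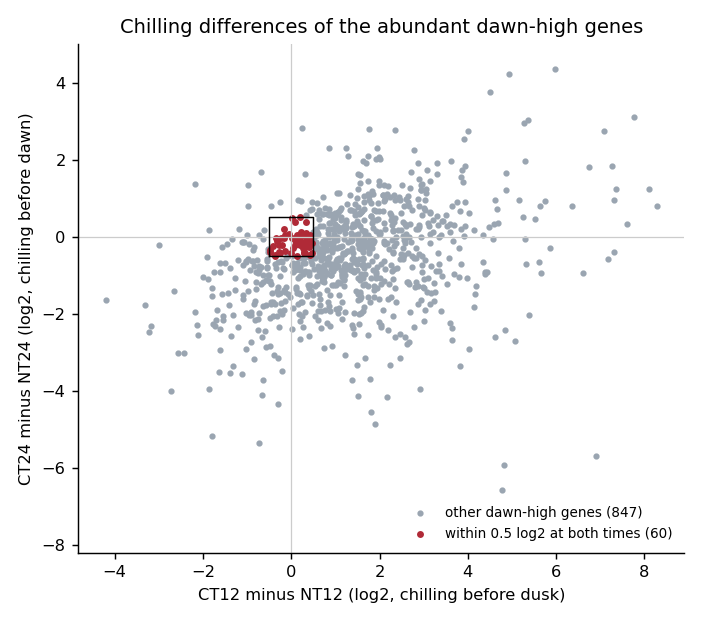
Each point is 1 of 907 abundant dawn-high genes, with CT12 minus NT12 on the x axis and CT24 minus NT24 on the y axis (log2 of mean scaled counts plus 1). The box encloses the 60 members, and more points lie to the right of it, 211 of them level with it, than to the left.

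Within the limits most members were lower in CT24 than in NT24. At ZT12 the direction of the median depended on the scaling, and its size also depended on 1 library. CT12 minus NT12 had a median of 0.18 on the log2 scale, with 43 members above 0 and 17 below. Without replicate 2 of CT12 the median was 0.07, with 33 above 0 and 27 below, and with all libraries it was -0.12 under upper-quartile and -0.58 under total-count scaling. CT24 minus NT24 had a median of -0.15, with 13 above 0 and 47 below. Higher at ZT12 with lower at ZT24 was the commonest combination, in 33 members. Lower at both times was found in 14, higher at both in 10, and lower at ZT12 with higher at ZT24 in 3. Without replicate 2 of CT12 these counts were 25, 22, 8 and 5. In 20 members both differences were within 0.25. Over all genes with a largest M of at least 8, the medians were 0.14 and 0.08. Over the 907 abundant dawn-high genes they were 1.19 and -0.50, with 622 below 0 at ZT24 and 285 above, so these directions were not particular to the members. In the 35 dusk-high genes of the mirrored rule they were -0.07 and 0.25. NT12 and NT24 also set the rise by which members were chosen, so the directions describe the set and carry no test. In OsR498G0306885200.01 the differences were 0.11 and -0.04, as an example of a member near 0 at both times.

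The limits of the rule cut through a continuum. The members nearest the limits had a rise of 2.02, a ZT12 difference of 0.48 in size, a ZT24 difference of 0.499 in size and a largest M of 8.05. The nearest genes that missed 1 condition alone had 2.00 (1.99965 before rounding), 0.505, 0.505 and 7.94. Genes that missed the rise alone numbered 4740, the ZT12 limit alone 229, the ZT24 limit alone 102 and the abundance alone 28.

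A small number of members differed by a called amount after chilling. At ZT12, 5 of 60 were called, against 44.9% of genes tested, with 4 higher (24.9% of genes) and 1 lower (20%) in CT12. At ZT24, 5 were called, against 42.1%, with 1 higher (21.9% of genes) and 4 lower (20.2%) in CT24. All CT12 libraries lay above all NT12 libraries in 5 members (27.8% of genes) and below them in 1 (26.2%). All CT24 libraries lay above all NT24 libraries in 2 members (29.3% of genes) and below them in 19 (27.6%). The rule removed larger differences, so nothing is read from these shares. Without replicate 2 of CT12, 13 members were called at ZT12 (8 higher and 5 lower), against 47.1% of genes (25.6% higher). At ZT24 10 were called without it, against 46.3% of genes. The counts with another library left out are in the closing section.

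At ZT12 the most positive of the called members were OsR498G1220847300.01 and Novel00886. The latter had scaled counts of 1186, 1216 and 1171 in NT12 and 1573, 1693 and 1507 in CT12. All of its chilled libraries lay above all normal ones, with a fitted log2 change of 0.41 (95% interval 0.20 to 0.62). The call held with each library left out and was lost under upper-quartile and cyclic loess scaling and under total counts, where the change was -0.34. It is the only member whose identifier lies outside the OsR498G numbering, as did 2.78% of those of abundant genes, and the labels do not say what such identifiers stand for. The called fall was that of OsR498G0613250700.01, from 1595, 1265 and 1226 to 1152, 954 and 953, a fitted log2 change of -0.43 (95% interval -0.72 to -0.13). The groups did not overlap, but the call was lost when NT12 replicate 1, CT12 replicate 2 or CT12 replicate 3 was left out. Under total-count scaling its change was -1.19. The other members called higher, OsR498G0917928900.01 at 0.35 and OsR498G0306669800.01 at 0.38 on the fitted log2 scale, fell outside the rule for naming and were added after their values were seen. Their calls were lost in 15 and 14 of 21 alternatives, and both changes were negative under total counts, at -0.41 and -0.39.

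At ZT24 the member called higher was OsR498G0204580600.01. It had 10601, 8524 and 9275 scaled counts in NT24 and 12052, 13563 and 13862 in CT24, with no overlap between groups, and a fitted log2 change of 0.46 (95% interval 0.19 to 0.72). At ZT12 the same gene had 924, 940 and 799 in NT12 and 995, 849 and 835 in CT12, where the groups overlapped. The most negative called member was OsR498G1119453700.01, with 11045, 9476 and 9656 in NT24 and 6312, 7641 and 7444 in CT24. Its groups did not overlap at ZT24, and its fitted log2 change was -0.51 (95% interval -0.80 to -0.22). The remaining called members besides OsR498G1220847300.01 were OsR498G1018558000.01 at -0.43 and OsR498G0511243200.01 at -0.39, both added after their values were seen, and each call was lost in 5 of 21 alternatives.

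OsR498G1220847300.01 was called in opposite directions at the 2 times. Its scaled counts were 1748, 1777 and 1719 in NT12 and 2265, 2685 and 2148 in CT12, with all chilled libraries lying above all normal ones. In NT24 they were 8237, 7691 and 8314 and in CT24 4996, 5821 and 6580, all chilled libraries lying below. The fitted log2 changes were 0.43 (95% interval 0.18 to 0.68) and -0.50 (95% interval -0.75 to -0.24). This member had the smallest dawn rise under chilling, 2.45-fold against 4.62-fold at 28 °C. The difference between its responses was -0.93 (SE 0.16). With all libraries, 4 of 60 members had a called difference between responses, against 22.2% of genes tested, 0 with a higher response at ZT24 (9.24% of genes) and 4 with a lower one (13%). Without replicate 2 of CT12 this count was 6, against 28.3% of genes. The call of OsR498G1220847300.01 at ZT12 was lost under upper-quartile scaling and without NT12 replicate 3, where the change was 0.38, and the change was negative under total-count and cyclic loess scaling.

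A gene that misses a call has not been shown to be steady, so the width of the intervals was set beside the changes. The 95% interval of the fitted log2 change lay within 1 log2 unit of 0 at both times in 43 of 60 members, against 25.4% of genes tested, and the rule had already kept the estimates small. Taken singly, 45 members met this at ZT12 and 49 at ZT24. Intervals within 0.5 log2 units at both times were found in 4 members. The median half-width of the interval was 0.45 at ZT12 and 0.44 at ZT24, close to the limit of 0.5 in the rule. In the other 17 members the replicates leave room for a change of 2-fold or more at 1 of the times at least.

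**Figure D4:**
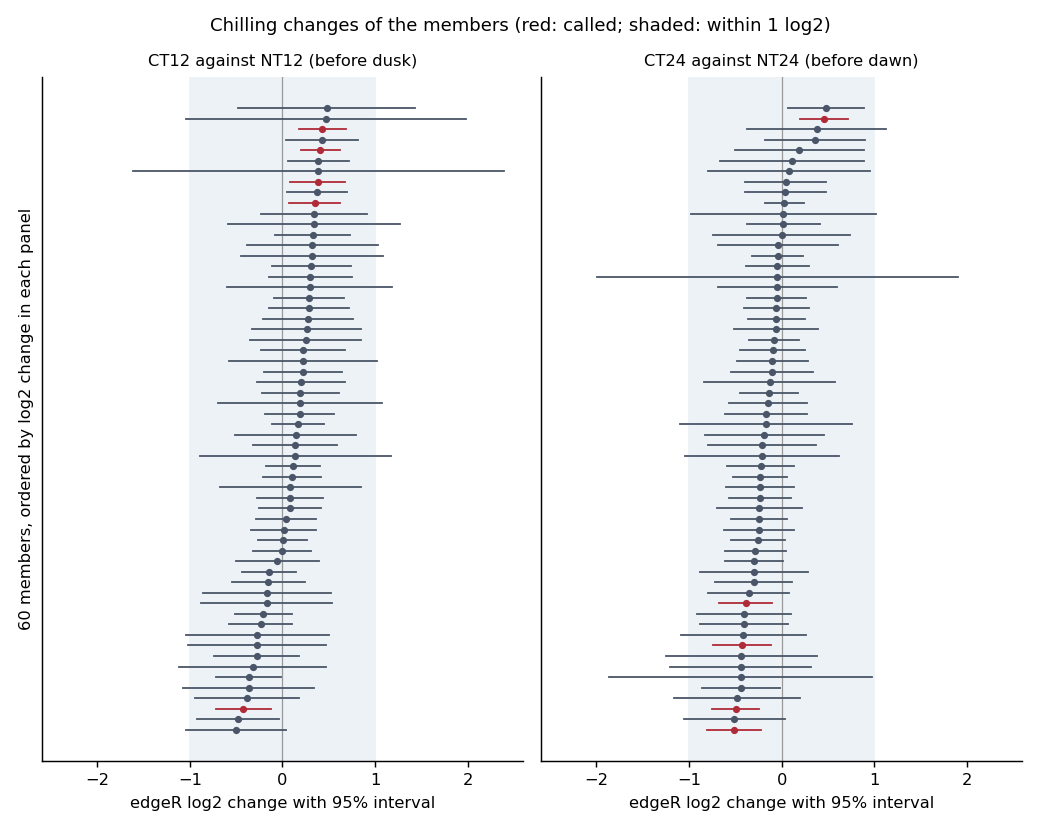
Points are the fitted log2 changes of the 60 members, with 95% intervals as lines, for chilling at ZT12 (left) and ZT24 (right), ordered within each panel. The shaded band marks changes within 1 log2 unit, which holds the whole interval of 45 members on the left and 49 on the right, and red marks the 5 called members in each panel.

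Scaling decided whether the members appeared steady at ZT12. Under total-count scaling the median of CT12 minus NT12 over the 60 was -0.58 on the log2 scale in place of 0.18, with 23 of 60 within 0.5 in place of 60. In the fit across all genes with total counts, 37 members were called lower and 0 higher at ZT12. Under TMM (the trimmed mean of M values, used in the fit) these were 1 lower and 4 higher. The whole table moved too: 63.6% of all genes were called under total counts (10.6% higher), against 44.9% under TMM (24.9% higher). The median of all genes moved from -0.02 to -0.77. Upper-quartile scaling gave a median of -0.12 over the 60 (48 within 0.5), with 9 called lower and 0 higher. Of all genes 49.4% were called there, 17.8% higher. Cyclic loess gave 12 lower and 1 higher, with 42.9% of all genes called, 23.4% higher. TMM gave 0.17 with all 60 within 0.5. At ZT24 the median over the 60 was -0.15 under the rule's scaling, -0.17 under TMM, -0.28 under upper-quartile and -0.18 under total-count scaling. Applied anew, the rule kept 64 genes under TMM, 65 under upper-quartile and 53 under total-count scaling, of which 58, 38 and 12 were among the 60. The dawn rise had a median of 2.12 under total counts and a lowest value of 1.60, with 35 of 60 at 2 or more, and 54 were at 2 or more under upper-quartile scaling.

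The same differences were also read in libraries that had not been used for choosing. The rule was applied to 2 libraries per group, leaving out 1 replicate number in all groups, and the differences were read in the 4 libraries left out. This gave 64, 61 and 55 genes with replicate 1, 2 and 3 left out, of which 43, 43 and 42 were among the 60. In the libraries left out, the rise was at least 2 in 55, 54 and 50 of these genes, which is 85.9% to 90.9%, where 5.79% to 7.48% of all abundant genes had such a rise. The ZT12 difference was within 0.5 in 36, 34 and 32, which is 55.7% to 58.2%, against 41.8% to 43.8% of abundant genes. The ZT24 difference was within 0.5 in 32, 50 and 43, which is 50% to 82.0%, against 43.2% to 47.8%. The whole rule held in 16, 26 and 24 genes. The abundant genes were not chosen on the rise, and most had none of that size, so a wide contrast follows from the choice. Single libraries are noisier than group means, and genes are not replicates, so no test is given. Size factors and the list of abundant genes came from all 12 libraries, so the reading was not fully independent, and it covers the genes chosen each time rather than the 60.

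Spread between libraries was largest in CT12. The SD of log2 scaled counts over 3 libraries had a median over members of 0.38 in CT12, against 0.21 in NT12, 0.15 in NT24 and 0.17 in CT24. Over all abundant genes the median was likewise highest in CT12, at 0.25, against 0.16, 0.16 and 0.17 in the same order. Replicate 2 of CT12 differed by over 1 log2 unit from the other CT12 libraries in 11 members (18.3%) and in 11.7% of abundant genes. It was the highest CT12 library in 24 members and the lowest in 22, so by rank the displacement had no single direction. By size it reached further upward, with deviations from -1.63 to 4.13 on the log2 scale. Without it, 50 of the 60 had a ZT12 difference within 0.5, 6 lay at or below -0.5 and 4 at or above 0.5. Replicate 1 of NT24 was the highest of its group in 41 members (68.3%, against 36.7% of abundant genes). Its deviation from the other NT24 libraries had a median of 0.19 on the log2 scale over all 60.

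OsR498G0714307700.01, picked out after its values were seen, met the ZT12 limit with replicate 2 of CT12 and not without it. It had 26.5, 829 and 81.2 scaled counts in CT12, replicate 2 being the high value, against 102, 264 and 349 in NT12. CT12 minus NT12 was 0.39 with that library and -2.13 without it. In NT24 it had 2541, 945 and 953 and in CT24 1400, 1230 and 1719, so that replicate 1 was high in NT24. OsR498G0305073700.01 was of the same kind, with 23.5, 183 and 28.0 in CT12 and a ZT12 difference of 0.46 with replicate 2 and -1.10 without it. How far replicate 2 of CT12 bears on other members beyond these values was not tested.

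**Figure D5:**
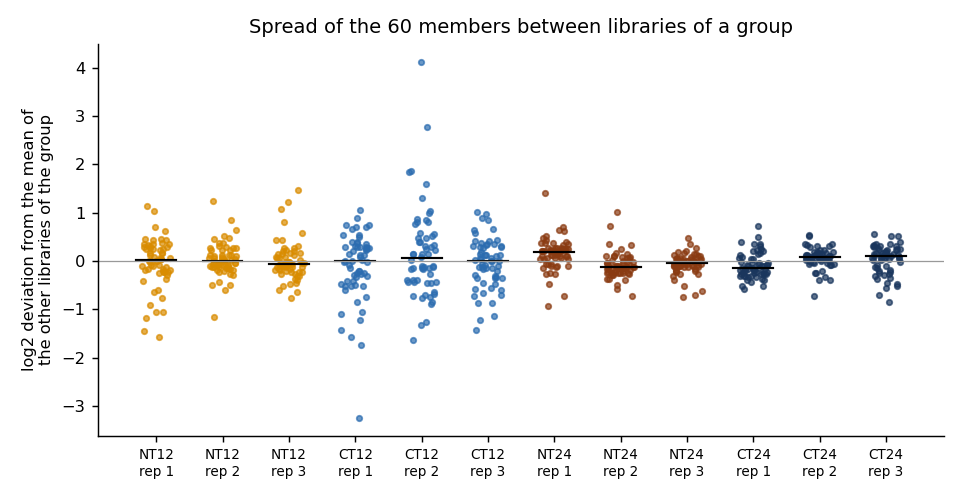
Each point is 1 of the 60 members, plotted by library, with its log2 deviation from the mean of the other libraries of the group, and black bars mark medians. Points spread most in the CT12 libraries, where replicate 2 reaches 4.13, and all points of the CT24 libraries lie within 1 log2 unit of 0.

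Membership was sensitive to single libraries, though the number of genes was not. With each of the 12 libraries left out in turn, the rule kept between 52 and 65 genes. Of the 60, 22 were kept every time, 23 were lost in 1 or 2 of the 12 cases and 15 in 3 or more. The members shared a profile, which the rule already requires of their group means. Pearson's r of a member's log2 levels over the 12 libraries with the members' median profile had a median of 0.980, and 49 members exceeded 0.95. The lowest was 0.795, for OsR498G0714307700.01. The rule sets the shape of the profile, and the median profile is made of these members and libraries. The values of r are therefore a description, carry no p and do not bear on how stable membership was.

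A small share of genes outside the set had a profile close to the members' median. Of 16230 other abundant genes, 237 had an r above 0.95 with the median profile over the 12 libraries. The closest were OsR498G0409133900.01 (r = 0.995) and OsR498G1120419800.01 (r = 0.993). The former rose by 4.68 on the log2 scale from NT12 to NT24 and missed the rule with a ZT24 difference of -0.68. The latter rose by 3.96 and missed it narrowly with a ZT12 difference of -0.52.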

How the data were processed

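The authors deposited whole-number counts per gene, 1 column per library and not normalized; per the submitters' processing notes, HISAT2 2.0.4 was used. No label names a counting tool, build, annotation or strand setting, and reads of near-identical or overlapping genes cannot be told apart from the table. The members and lists were chosen with earlier results of these data known. Across the table, edgeR 4.0.16 in R 4.3.3 (expression filter with minimum count 10 and minimum total 15, TMM scaling, quasi-likelihood fit with 1 mean per group, 8 residual degrees of freedom) tested 24700 genes holding 99.98% of counts, and adjusted p-values (Benjamini-Hochberg) were taken over all of them. SE and 95% intervals came from the F statistic. Scaled counts are counts divided by median-of-ratios size factors from 22389 genes above 0 in all libraries. The fit was tested on simulated counts: for CT12 against NT12, on 24272 genes, 40 of 100 changes of 2-fold and 93 of 100 of 4-fold were recovered. For the interaction, on 24294 genes, these were 19 of 100 and 76 of 100. No other genes were changed in the simulation, whereas in the data 44.9% of genes were called at ZT12 and 22.2% in the interaction. The changed genes were drawn at random and not from the members, so these rates do not give the power for the members.

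Members named individually were the 2 with the largest difference in each time-of-day comparison, the 2 most positive and 2 most negative called members of each chilling comparison and of the interaction (all averaging at least 5 CPM), and the 2 with the highest NT24 level. Alternatives used limma 3.58.1, DESeq2 1.42.0, other scalings and filters, and libraries left out. The clock and tissue marker lists had no matched identifier and gave no result. Total counts per library ranged from 42966604 to 52762123. Libraries of a group differed beyond sampling noise (chi-square per gene between 25.6 and 139), so each was counted separately.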

Additional observations from a re-analysis of the deposited data

Results flagged for a closer look

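The response to chilling differed by a called amount between ZT24 and ZT12 in 4 of 60 members, against 22.2% of genes tested. The calls came from the interaction term of edgeR's quasi-likelihood test (adjusted p below 0.05 over all genes), which is why these members are listed. The values are log2 differences between the responses, and each response had been held within 0.5 by the choice of members. OsR498G1220847300.01 had -0.93 (SE 0.16), and its call was lost in 1 of 20 alternatives, total-count scaling. OsR498G0407449600.01 had -0.67 (SE 0.21), from 2288, 2040 and 2346 scaled counts in NT12, 3340, 2364 and 3073 in CT12, 18173, 13703 and 14534 in NT24 and 13137, 13091 and 12289 in CT24. All of its CT12 libraries lay above the NT12 libraries and all of its CT24 libraries below the NT24 libraries, yet the call was lost in 13 of 20 alternatives. OsR498G1119453700.01 had -0.63 (SE 0.19), and its call was lost in 13 of 20 alternatives, 9 of them with 1 library left out. OsR498G0306669800.01, added after its values were seen, had -0.61 (SE 0.19), and its call was lost in 14 of 20, 10 of them with 1 library left out. Under total counts these values were 0.13 and 0.14. With 3 libraries per group, no outlier test was applied to single values.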

How the results depend on the processing

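Counts of 59 or 60 members called higher at dawn changed by at most 1 under the alternatives run, from 59 to 60 at 28 °C and from 58 to 60 under chilling, also with 1 library left out. Of all genes, 12.6% to 25.3% were called higher at 28 °C and 15.1% to 31.4% under chilling. Small counts moved more. At ZT12, 5 called members became 9 under upper-quartile scaling, 37 under total counts, 13 after cyclic loess, 8 with DESeq2, 3 without a filter and 3 with NT12 and CT12 alone in the fit (2 to 13 with 1 library left out: 13 without CT12 replicate 2, 2 without NT12 replicate 3, and 3 without replicate 1 or 2 of NT12, replicate 2 or 3 of NT24 or replicate 2 of CT24). The share of all genes called was 44.9% in the main fit and, in the same order, 49.4%, 63.6%, 42.9%, 49.4%, 36.2% and 40.4%. With 1 library left out it ran from 38.0% to 47.1%. At ZT24, 5 became 10 under upper-quartile scaling, 8 after cyclic loess and 12 with NT24 and CT24 alone in the fit (3 to 10 with 1 library left out: 10 without CT12 replicate 2, and 3 without replicate 1 or 3 of NT24 or replicate 1 or 2 of CT24). Of all genes 42.1% were called in the main fit and, in the same order, 42.8%, 43.0% and 46.6%. With 1 library left out this share ran from 34.1% to 46.3%. For the interaction, 4 became 2 under upper-quartile scaling, 13 under total counts (all of them more positive at ZT24), 2 after cyclic loess, 7 with DESeq2 and 2 in the fit with a replicate block (1 to 6 with 1 library left out: 6 without CT12 replicate 2, 2 without CT12 replicate 1, and 1 without replicate 2 or 3 of NT12, replicate 3 of CT12, replicate 1 or 3 of NT24 or any replicate of CT24). The number of members with both intervals within 1 log2 unit was 43 and became 21 under total counts (39 to 44 with 1 library left out, and 43 with SE from the fit's working weights, chosen after seeing the data). The median SD of the members within groups was 0.222 and ranged from 0.185 to 0.234 with 1 library left out. Some named values reversed: at ZT12 OsR498G1220847300.01 was -0.32 under total counts and -0.0029 after cyclic loess, and Novel00886 was -0.34 under total counts; the interaction of OsR498G0407449600.01 was 0.085 under total counts. The median over all genes became -0.77 at ZT12 and 0.73 in the interaction under total counts; the cause of the other changes was not tested.

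Same-numbered libraries showed no sign of pairing, though with 3 libraries per group this cannot exclude it. The correlation of deviations from group means ran from -0.44 to 0.29 between same-numbered libraries, and 0 of 12 correlated best with their own number. With the replicate block, 59 members were called higher in NT24 (21.5% of all genes) and 59 in CT24 (18.5%). In either direction, 7 were called at ZT12 (41.1%) and 5 at ZT24 (37.9%). Every member had at least 14 counts in every library, and the median half-width of the 95% interval was 0.45 at ZT12 and 0.44 at ZT24 on the log2 scale.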
